A study of Mus musculus with 9 samples.

Results

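Ppfia2 and Acss3 are neighbours on mouse chromosome 10, and the lines of the insertion table that list either gene were taken as the members. They are 2 of the 22353 genes in the table, and 10304 lines in all libraries list them. The pair was selected on the number of tumours with a called insertion site in each treatment arm, so every difference between treatment arms below is a description with no test.

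Lazy Piggy mice carry a transposon with nested Sleeping Beauty (SB) and piggyBac (PB) ends, and the study looked for genes that maintain Sonic hedgehog (SHH) medulloblastoma, a cerebellar tumour. Genomic DNA of the tumours was sheared to about 300 bp and amplified from the SB end (IR libraries), the PB end (PB libraries) or the join between them (JX libraries). The sample titles also hold the words restriction splink, and an effect of a restriction step on the counts was not tested. The 72 tumours of the TAM+ arm came from mice given tamoxifen and the 47 of the TAM- arm from mice that were not, all of the genotype that the labels call lazy_piggy. In this system tamoxifen is meant to switch on the piggyBac transposase, which can lift the element out again, so a site can differ between the 3 kinds of library. The sheet lists tamoxifen for 4 to 249 days (median 49) in 71 treated tumours. The sources used here give no ages, further alleles or transposase promoters. The transposon started from chromosome 10 in 90 tumours (53 with tamoxifen, 37 without) and from chromosome 7 in 29 (19 and 10). Tumours are numbered within each arm, and the number is only a name.

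Ppfia2 encodes liprin-alpha-2, a scaffold protein of the presynaptic active zone that binds receptor protein tyrosine phosphatases, RIM and ELKS proteins and CASK. Acss3 encodes a mitochondrial short-chain acyl-CoA synthetase that activates propionate. A transposon in an intron can truncate a transcript or drive one from its own promoter, depending on the orientation, and SB elements tend to land near the site they left.

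Counts per tumour and kind of library ranged from 295999 to 6337624 in IR, from 116836 to 2025775 in JX and from 1714 to 2853048 in PB. Reads carry no molecular identifiers, so intervals below cover the counting of tumours only, and a share of counts cannot separate the fraction of cells with an insertion from its amplification. Of the libraries, 1 stands apart. All 18 called IR sites of the tumour tamoxifen 60 had at least 10 counts in a control DNA library of the same lane, against 3 of 2293 called sites of the other 118 tumours. The counts of tumours and insertions, the orientations and the PB offsets are therefore also given without tamoxifen 60. The tumour tamoxifen 3 had 130 IR, 689 JX and 187 PB sites called, and the same results are given without it too.

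Calling a site in a tumour and kind of library took 10 counts or more and no less than 1% of the highest site's count. All positions are in mm9, on chromosome 10. The listed body of Ppfia2 runs from 105911273 to 106370485 (459 kb, forward by the order of its parts), and that of Acss3 from 106374018 to 106560639 (187 kb, reverse), so the 3′ ends face each other. Every one of the 119 tumours listed at least 1 position of Ppfia2 and 116 listed 1 of Acss3, of which 27.0% and 26.0% of the lines held a single count.

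Ppfia2 carried a called site in 18 of 119 tumours (15.1%), in 15 of 72 with tamoxifen (20.8%) and 3 of 47 without (6.38%). For Acss3 the number was 10, of which 7 had tamoxifen (9.72%) and 3 did not (6.38%). Without tamoxifen 60 the treated tumours numbered 14 for Ppfia2 and 7 for Acss3, and without tamoxifen 3 they numbered 14 and 6. Both genes were hit in 4 tumours, and either gene in 24. Of the 18 Ppfia2 tumours, 10 had the call in 1 kind of library, 5 in 2 kinds and 3 in all 3. Counting Ppfia2 itself, 5 genes of the table were hit in as many tumours or more, and 14 genes reached the 10 tumours of Acss3.

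By kind of library, Ppfia2 had IR sites in 8 tumours with tamoxifen (11.1%) and 1 without (2.13%). The difference was 8.98 percentage points, with a 95% Newcombe interval from -1.49 to 18.5. In JX the counts were 9 (12.5%) and 3 (6.38%), a difference of 6.12 points (-6.12 to 16.6), and without tumours of over 100 called JX sites they were 5 and 2. In PB they were 8 (11.1%) and 0, a difference of 11.1 points (1.84 to 20.4). The 5 tumours of over 100 called PB sites were all treated, and without them the PB counts were 6 and 0. The 2 tumours of over 100 called IR sites were treated too, and without them the IR counts were 6 and 1. Without tamoxifen 60 the treated counts were 7 (IR), 9 (JX) and 7 (PB), and without tamoxifen 3 they were 7, 8 and 7. The intervals take no account of the choice of the gene for this pattern. Acss3 had IR sites in 2 and 0 tumours, a difference of 2.78 points (-5.04 to 9.57). Its JX counts were 2 and 2 (-1.48 points, -11.7 to 5.98) and its PB counts 5 and 1 (4.82 points, -5.00 to 13.3). Without tamoxifen 3 the treated Acss3 tumours numbered 1 in IR and 1 in JX.

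As background, two-sided Fisher's exact tests between arms over all genes hit in at least 3 tumours, with Benjamini-Hochberg adjustment, called no gene: 0 of 40 for IR, 0 of 244 for JX and 0 of 55 for PB (0% each). At an unadjusted p under 0.05 the tests called 0 genes for IR, 2 for JX (0.820%) and 1 for PB (1.82%). The PB gene was Ppfia2 itself, which was selected on these counts, and the JX genes were Mctp1 and Prkg1, named after their values were seen. More tumours by percent were hit with tamoxifen for 80.0% of the genes tested for IR, 69.3% for JX and 72.7% for PB, so a higher percent with tamoxifen was common in the table. All 9 sequencing lanes held both arms, and 7 tumours were in 2 lanes. Counting these in both lanes, the percent of tumours with a Ppfia2 site was higher with tamoxifen in 8 lanes and equal in 1. Over the 112 tumours of 1 lane it was higher in 5, lower in 3 and equal in 1. For Acss3 it was higher in 5, lower in 2 and equal in 2 either way. Weighted within lanes, the Ppfia2 differences were 8.32 points in IR, 6.84 in JX and 10.5 in PB.

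**Figure D1:**
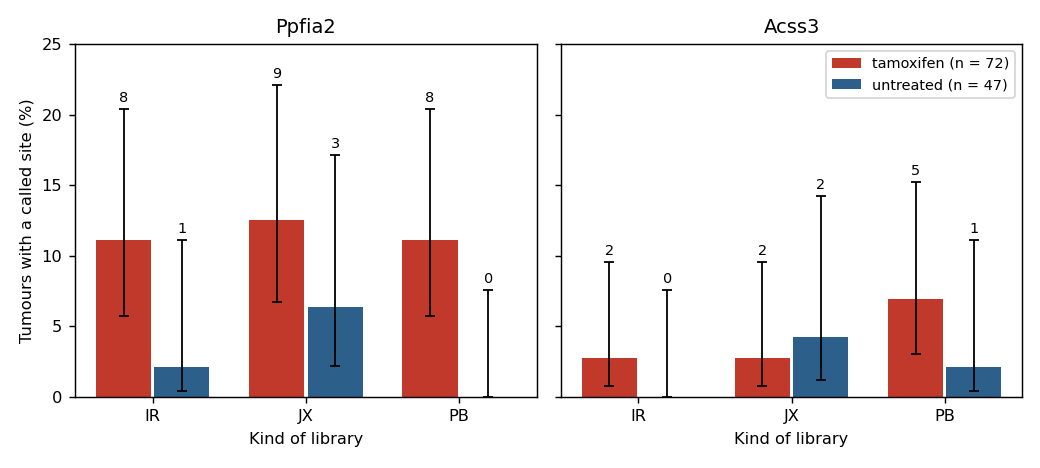
Percent of tumours with a called site in Ppfia2 (left) and Acss3 (right) by kind of library, with tamoxifen (red, n = 72) and without (blue, n = 47). Lines are 95% Wilson intervals and the numbers are tumours. Ppfia2 was hit in 8, 9 and 8 treated tumours and in 1, 3 and 0 untreated ones, and all pairs of intervals overlap.

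Most hits came from the 90 of 119 tumours whose transposon started on chromosome 10. In these, Ppfia2 IR sites were called in 8 of 53 treated and 1 of 37 untreated tumours, JX sites in 9 and 3, and PB sites in 7 and 0. Of the 29 tumours with the donor on chromosome 7, 1 had a Ppfia2 site and 2 had an Acss3 site, all in PB. For Acss3 the percent of tumours with a PB site was 4.44% with donor 10 and 6.90% with donor 7. The donor 7 tumours were tamoxifen 9 and tamoxifen 41, with 68 and 41 PB counts at the site. Their PB libraries were small, with 10515 and 18059 counts against a treated median of 204964, and had 149 and 140 sites called. Tamoxifen 9 was also the donor 7 tumour hit in Ppfia2. In all listed counts, called or not, the median share of IR counts was higher with donor 10. It was 0.0702% with donor 10 and 0.000989% with donor 7 in Ppfia2, and 0.0193% and 9.23e-05% in Acss3.

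**Figure D2:**
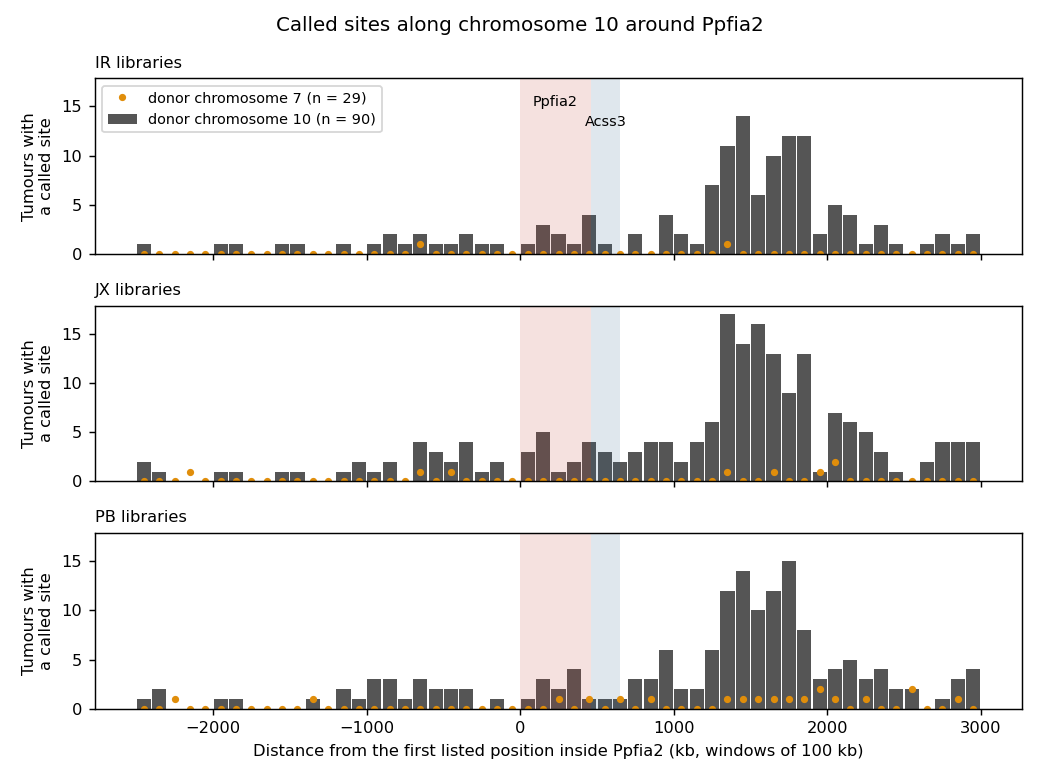
Tumours with a called site in 100 kb windows along chromosome 10 by distance from the first listed Ppfia2 position, for donor chromosome 10 (bars, n = 90) and donor chromosome 7 (dots, n = 29), with Ppfia2 shaded red and Acss3 blue. The windows over Ppfia2 hold 1 to 4 donor 10 tumours for IR, and the windows at 1300 and 1400 kb hold 11 and 14.

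Along the chromosome, sites over the members were sparser than at the peak further on. Per 100 kb of body, Ppfia2 was hit in 1.96 tumours in IR, Acss3 in 1.07, Tmtc2 upstream of them in 0.517 and Ptprq beyond Acss3 in 2.97. Otogl, a gene for an otogelin-like protein, reached 13.6, and Ppp1r12a, a gene for a myosin phosphatase subunit, 13.1. Syt1, a gene for a synaptic vesicle calcium sensor with a body of 513 kb, had 1.95. Lin7a, between Acss3 and Ptprq, encodes a scaffold protein that binds CASK and had 0 tumours with an IR site in its body. Its body had 2.62 tumours per 100 kb in JX and 3.27 in PB. Counting sites listed to Lin7a outside the body too, 16 tumours were hit in any kind of library. In JX the members had 2.61 and 1.61 tumours per 100 kb, and in PB 1.74 and 2.14. These densities are descriptions, since gene length and distance from the donor site move with them and their part was not tested.

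**Figure D3:**
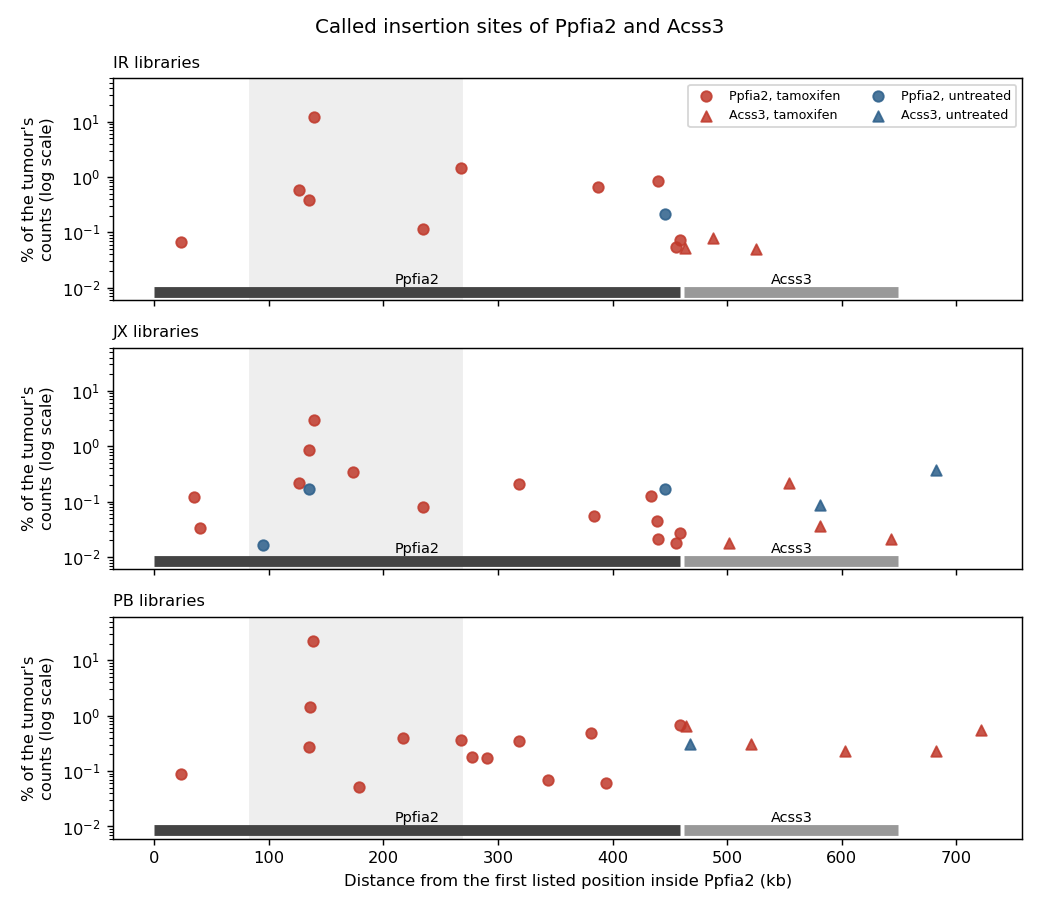
Called sites of Ppfia2 (circles) and Acss3 (triangles) by distance from the first listed Ppfia2 position and percent of the tumour's counts (log scale), with tamoxifen (red) and without (blue). Bars mark both bodies and the grey band intron 3 of Ppfia2. The highest point in each panel is the tumour tamoxifen 42, with 12.3%, 3.03% and 21.9% of the counts.

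The site with the largest share lay in intron 3 of Ppfia2, at 106050241, in the tumour tamoxifen 42 (donor chromosome 10, 16 days). It held 420121 IR counts, 12.3% of the tumour's total, and ranked 3 of its 12 called sites. In JX the same position held 9654 counts (3.03%, rank 4 of 20). In PB the counts lay 25 bp away, at 106050216, with 10262 counts (21.9%, rank 2 of 11). In 21 other tumours the IR position was also listed, with at most 1485 counts. The 2 sites above it in IR were listed 5′ of 2300009A05Rik on chromosome 9 (24.3%) and 3′ of Crygf on chromosome 1 (13.1%).

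The other Ppfia2 sites were smaller. In IR, tamoxifen 60 had 26898 counts at 106179140 in intron 3 (1.47%, rank 14 of 18). Tamoxifen 32 had 0.855% at 106350993 in intron 28, tamoxifen 20 had 0.649% at 106298882 in intron 18, and tamoxifen 44 had 0.580% at 106037637 in intron 3. Only tamoxifen 42 and 60 passed 1% of the IR counts. The rest of the treated IR sites were at 0.384% in tamoxifen 31, 0.114% in tamoxifen 46, and 0.0544 to 0.0717% in tamoxifen 3. The 1 untreated IR site, at 106356803 in intron 29 of untreated 39, held 0.217% (rank 21 of 29). It held 0.173% in JX as well.

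In JX, tamoxifen 31 had 0.857% at 106046569 in intron 3, which also held 1.46% of its PB counts at 106046810. The remaining untreated JX sites were in intron 3, at 106046054 with 0.173% in untreated 43 and at 106005790 with 0.0168% in untreated 16. Other treated JX sites held from 0.0183% to 0.338% of the counts. The median share of a called Ppfia2 site was 0.384% (IR), 0.119% (JX) and 0.315% (PB), against 0.656%, 0.0611% and 0.433% over all called sites of the table. The Ppfia2 median was thus below that of all sites in IR and PB and above it in JX. Sites were spread where at least 3 tumours listed the position and none held over 50% of its counts. Of all called sites, 3115 of 6778 were spread in JX, 21 of 2311 in IR and 43 of 2910 in PB. Of the 17 Ppfia2 JX sites 0 were spread, so the JX medians compare unlike sites. Of the 11 Ppfia2 IR sites 0 were spread, but of the 14 PB sites 2 were, both in tamoxifen 31. Of the 6 Acss3 PB sites 1 was spread.

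The call threshold fell among the Ppfia2 sites. Between 1% and 2% of the highest site lay 7 IR, 8 JX and 9 PB sites of Ppfia2, and between 0.5% and 1%, just below the call, 8, 12 and 16, counted before sites shared by tumours were credited to 1 of them. For Acss3 the numbers inside were 3, 3 and 3 and those outside 5, 4 and 10. Counted at 0.1% of the highest site, Ppfia2 IR sites were found in 26 treated and 9 untreated tumours, JX sites in 21 and 8, and PB sites in 26 and 11. At 5% the counts were 2 and 0, 5 and 1, and 2 and 0.

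Shares over all listed positions of Ppfia2 overlapped between the arms apart from the top. In IR they ran from 0 to 12.3% with tamoxifen (median 0.0436%, second highest 1.5%) and from 0 to 0.271% without (median 0.0267%). In JX the treated tumours reached 3.04% (median 0.00155%) and the untreated ones 0.187% (median 0.00254%). In PB they reached 21.9% (median 0.0149%) and 0.271% (median 0.0107%). The highest shares in each kind were therefore in treated tumours, while the JX median was the higher in untreated ones. For Acss3 the highest shares with and without tamoxifen were 0.435% and 0.266% for IR, 0.346% and 0.380% for JX, and 0.846% and 0.320% for PB.

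**Figure D4:**
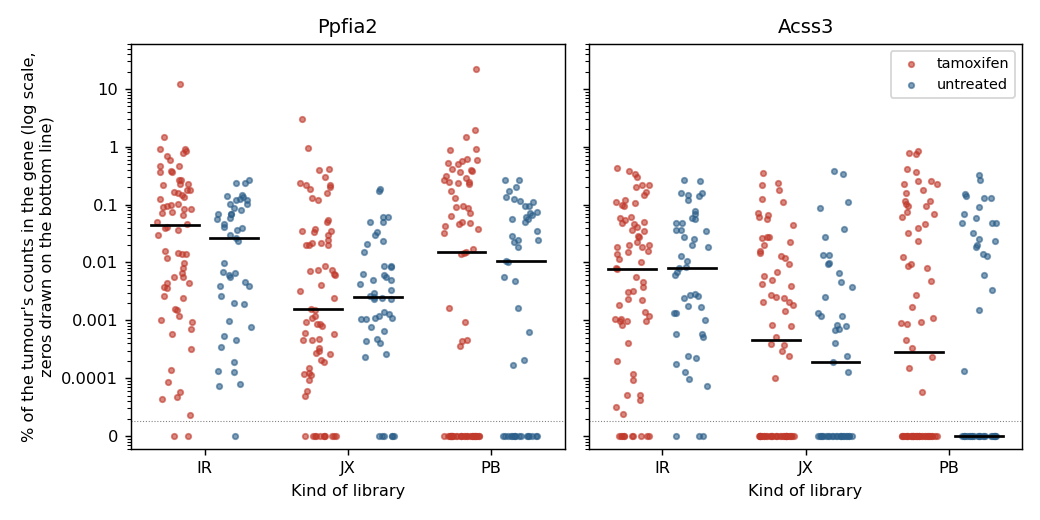
Percent of each tumour's counts at positions listed to Ppfia2 (left) and Acss3 (right), called or not, by kind of library and arm, on a log scale with zeros on the bottom line. Points are tumours (72 with tamoxifen, 47 without) and black lines medians. For Ppfia2 the arms overlap up to 0.271% in IR and only treated tumours lie above it.

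The 42 called Ppfia2 sites over the 3 kinds of library comprised 38 in introns and 4 in exons, with none outside the body. The table marks 37 as disrupting the coding sequence and 5 as not, and over all genes it marks 82.4% (IR), 82.8% (JX) and 80.7% (PB) of body sites as disrupting. Intron 3 is 40.3% of the body by length and held 18 of the sites (42.9%), in 10 tumours. Intron 2, with 17.3% of the length, held 4. Sites of 1 insertion in several kinds of library count more than once here. Exonic positions were in exon 15 (tamoxifen 59, PB) and exon 32 (tamoxifen 3 in IR and JX, tamoxifen 9 in PB). At the exon 32 PB position tamoxifen 3 held more counts (2822, 0.202%) than tamoxifen 9 (71, 0.675%), which was credited by share.

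Of the 15 Acss3 sites, 11 were in introns, 1 in exon 14 and 3 upstream of the gene. The upstream sites lay 33.0 kb from the body in untreated 29 in JX (106593696, 0.371%) and in tamoxifen 43 in PB (106593663, 0.232%), and 72.2 kb from it in tamoxifen 70 (106632882, 0.560%). The highest share inside the body was 0.647% in tamoxifen 9, in intron 13. This was a PB site of 68 counts that was spread, with 45 counts in another tumour. No Acss3 site reached 1% of a tumour's counts in any of the 3 kinds of library.

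Called sites of a tumour within 1000 bp were joined into 45 insertions, 30 in Ppfia2 and 15 in Acss3. Of these 36 were called in 1 kind of library, 7 in 2 and 2 in all 3. The 27 treated Ppfia2 insertions came from 15 tumours and the 3 untreated ones from 3. Tamoxifen 3 alone had 8 in Ppfia2 and 5 in Acss3, and tamoxifen 9 and tamoxifen 31 had 3 each in Ppfia2. Without tamoxifen 60 there were 29 and 15 insertions, and without tamoxifen 3 there were 22 and 10.

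Orientation was not used in choosing the genes and was tested for all genes with at least 6 called sites. By the orientation that the table lists, Ppfia2 IR sites ran 5 with the gene and 6 against it, JX sites 13 and 4, and PB sites 6 and 8. The two-sided exact binomial test with Benjamini-Hochberg adjustment gave an adjusted p of 1 for each (unadjusted JX p 0.0490). It treated sites as independent, although a tumour can hold several. With a single vote per tumour the share with the gene was 44.4% (IR), 66.7% (JX) and 50% (PB), against 45.5%, 76.5% and 42.9% of sites. Across genes the test called 1 of 14 in IR (7.14%), which was not a member, 0% of 34 in JX and 0% of 17 in PB. At an unadjusted p under 0.05 it called 1 gene in JX (2.94%), which was Ppfia2 itself. In PB it called 1 gene (5.88%), not a member. Without tamoxifen 3 the Ppfia2 counts were 3 and 5, 8 and 4, and 5 and 6, and without tamoxifen 60 they were 4 and 6, 13 and 4, and 6 and 7. Leaving out each lane in turn moved the Ppfia2 share with the gene to between 28.6% and 55.6% (IR), 66.7% and 81.3% (JX), and 14.3% and 55.6% (PB), so IR and PB had no stable direction. The lowest PB share came without lane 8 and the highest without lane 1, and the lowest IR share came without lane 1. For Acss3 the counts were 3 and 3 in JX and in PB (adjusted p 1, exact binomial test). The listed orientation is that of the read, and left and right ends opposed in 94.3% of the JX sites with both ends and 96.5% of those in PB, but in 49.7% in IR.

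With right-end reads turned, an alternative chosen after seeing this, Ppfia2 IR sites ran 9 with the gene and 2 against it (adjusted p 0.458, exact binomial test). JX sites again numbered 13 and 4 (adjusted p 0.333) and PB sites 6 and 8 (adjusted p 0.896), both by the exact binomial test, although 4 JX and 2 PB sites had changed orientation. Turned, the IR counts were 8 and 2 without tamoxifen 60 and 6 and 2 without tamoxifen 3. Over the 22 Ppfia2 insertions with an IR or JX call, 17 ran with the gene and 5 against it, 11 and 5 without tamoxifen 3, and 16 and 5 without tamoxifen 60. The 9 Acss3 insertions ran 3 and 6, and 1 and 3 without tamoxifen 3. At least 90% of the reads had 1 orientation in 27 of the 31. Some of these had reads of 1 end only, such as tamoxifen 46 at 106146029. The figure therefore does not test whether left and right ends agree once turned.

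The highest PB position of an insertion lay beside its IR and JX position. Of the 31 insertions with an IR or JX call, 22 had PB counts within 300 bp, with the highest PB position at 25 to 290 bp (median 91). Counts within 10 bp were found in 1 of the 22, tamoxifen 60, with 16 of its 1423. The PB reads had the opposed orientation in 21 of 22, the exception being 3 PB counts in tamoxifen 5. They lay upstream, in the direction of the gene, where the IR and JX reads ran with it, and downstream where these ran against it, again in 21 of 22. Without tamoxifen 60 the median was 89 bp over 21 insertions, with the opposed orientation in 20 and this side in 20. Without tamoxifen 3 it was 178 bp over 12, with 11 and 12.

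**Figure D5:**
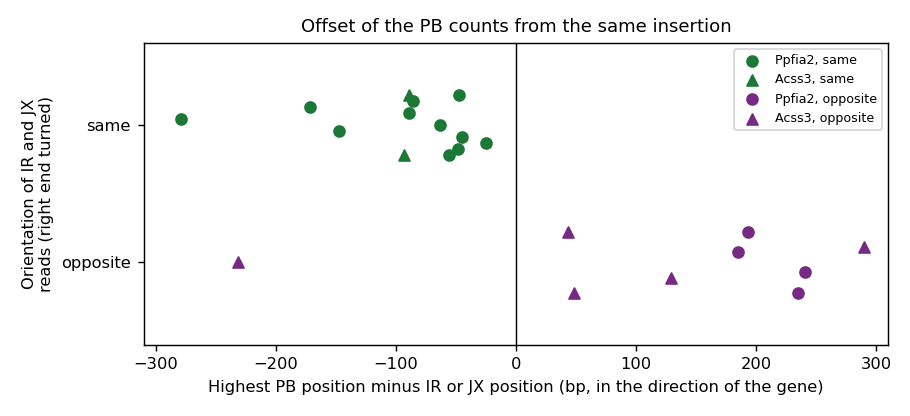
Offset of the highest PB position from the IR or JX position of the same insertion, in bp along the gene, for the 22 insertions with PB counts within 300 bp, by the orientation of their IR and JX reads with right-end reads turned. Circles are Ppfia2 and triangles Acss3. All points with the same orientation lie left of 0, and all but 1 of the others lie right of it.

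Called IR sites of the members lay within 100 bp of a JX count of that tumour in 11 of 14 cases (78.6%), against 82.3% of all called IR sites. A PB count was within 100 bp in 8 of 14 (57.1%, all sites 63.0%) and within 300 bp in 12 of 14 (85.7%, all sites 83.4%). The share was thus near that of the whole table. From the other side, 17 of the 20 PB sites of the members had an IR count within 300 bp (85%, all PB sites 73.0%).

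Tumours with a Ppfia2 site also often had sites in other genes of chromosome 10. By the Jaccard index over the 119 tumours, among 458 genes hit in at least 3, the likest was Nav3, a gene for a neuron navigator protein (0.281, 9 shared tumours). Ptprq (0.273), Otogl (0.265), Pawr (0.259) and Tmcc3 (0.25) followed, all on the same chromosome. These genes share the donor chromosome and the tumours with many called sites, and no test was made.

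Of the other 24 genes of a liprin and active zone list, 15 had a called site in any tumour, with a median of 1 tumour. Grip1, a gene for a glutamate receptor scaffold on chromosome 10, was hit in 7, Erc2, a gene for an ELKS protein, in 4, and Ppfibp1 (liprin-beta-1) and Cask in 3 each. Of the 11 other genes of an acetyl- and propionyl-CoA list, Acsm1, Pcca and Mcee were hit in 1 tumour each. Over the whole table, 4642 genes (20.8%) had a called site, so the median gene had none. The lists were not matched to the table in gene length, and their share of genes with a site was not tested. Fisher's exact test between arms covered 2 genes of the first list and called 0, and at an unadjusted p under 0.05 the tests over all genes gave the counts above.

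The 5 control tumours had no called site of either gene. Of the 7 control DNAs, 1 had an IR site in Ppfia2 (4000 of 153309 counts, 2.61%) at the position of tamoxifen 60, and 1 had a JX site with 0.00793% of its counts. The treated tumours hit in Ppfia2 had 13 to 233 days of tamoxifen (median 48), and those hit in Acss3 23 to 233 (median 45), against a median of 49 in all treated tumours.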

How the data were processed

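The values used are raw counts of reads per position and library, whole numbers deposited by the authors unscaled. Per the submitters' processing notes, positions are in mm9. For alignment, counting, annotation and filters, nothing is given in the sources used here. Arm, days and donor chromosome came from the authors' deposited sample sheet, in columns that hold no measurement. The animal was the replicate, so ends and repeat lanes were summed per kind of library, and the 9 lanes were used as batches. Nothing says how the animals were bred or caged. The arm tests treated the animals as independent, and shared litters or cages could not be taken into account. The orientation p-values count sites, and several can come from a single animal. Positions within 10 bp were merged, and a site called in several tumours was credited to the tumour with the highest share. Gene, part and orientation are those the table lists. Arms were compared over all genes by Fisher's exact test and orientations by an exact binomial test, with Benjamini-Hochberg adjustment and a threshold of 0.05, in Python 3.11.15 with scipy 1.17.1. On simulated data with 200 genes planted at 30% against 2% of tumours, a larger difference than any of the members', the arm test recovered 94.5% in IR (447 genes), 95% in JX (1123) and 96% in PB (548). The orientation test was tried on genes planted with 95% of 14 sites in the same orientation, a stronger lean than any of the members'. It recovered 83%, 85% and 82.5% of planted genes, with 3, 0 and 0 false calls. Acss3 was tested on 6 sites and Ppfia2 on 11 in IR, so these rates do not hold for them. Members and lists were chosen with earlier results of these data known. Named genes were the members, their neighbours, the likest genes and up to 4 genes of each list. Alternatives covered the call, merging, crediting, gene assignment, lanes, donor chromosome, orientation and distance.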

Additional observations from a re-analysis of the deposited data

Results flagged for a closer look

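Among libraries sequenced in 1 lane, the highest and lowest lane totals of each gene and kind of library were checked for a lane that stood apart. These were 12 checks, and chance flags about 1 in 20. The high and low checks of the same lanes are not independent. The share of JX counts in Ppfia2 was 0.161% in lane 8 (next highest 0.0632%, median 0.0203%). The share of JX counts in Acss3 was 0.0814% in lane 2 (next highest 0.0363%, median 0.0118%). Animals of no given arm entered no comparison, and their highest shares were above the highest of the control tumours. These were 0.252% of JX counts and 0.837% of PB counts in Ppfia2, and 0.476% of PB counts in Acss3. The control tumours reached 0.0307%, 0.0519% and 4.58e-05%. The medians did not all go this way: 0.000450% against 7.11e-05% for Ppfia2 in JX, 0% against 0.000458% for Ppfia2 in PB, and 0% in both for Acss3 in PB.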

How the results depend on the processing

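Counts are of tumours hit, with tamoxifen, without and in both arms. With the call at 0.1% of the highest site, Ppfia2 had 26, 9 and 35 (IR), 21, 8 and 29 (JX) and 26, 11 and 37 (PB), and Acss3 in 13, 8 and 21, 16, 6 and 22, and 15, 6 and 21. At 5% Ppfia2 had 2, 0 and 2 (IR), 5, 1 and 6 (JX) and 2, 0 and 2 (PB), and Acss3 had 0, 0 and 0 (IR), 1, 0 and 1 (JX) and 0, 0 and 0 (PB). With positions within 100 bp merged, Acss3 had 0 treated tumours in IR and 0 in all, and 1 treated in JX. Within the body only, Acss3 had 1 untreated tumour in JX and 3 treated in PB, and with donor chromosome 10 only 3 treated in PB. Leaving out tumours of over 100 called sites gave Acss3 1 treated tumour in IR and 1 in all, 1 in JX and 3 in PB, and Ppfia2 5 treated and 7 in all in JX. Leaving out tamoxifen 3, added after seeing the data like the former and the turned reads, gave Acss3 1 in IR, 1 in all and 1 treated in JX. PB counts near a member's IR site fell to 7.14% within 10 bp and rose to 85.7% within 1000 bp. Leaving out each lane in turn, Ppfia2 tumours ranged from 6 to 9 (IR), 8 to 12 (JX) and 5 to 8 (PB), treated ones from 6 to 8, 6 to 9 and 5 to 8, and untreated ones from 0 to 1, 2 to 3 and 0 to 0. Acss3 ranged from 1 to 2, 3 to 4 and 4 to 6, treated from 1 to 2, 1 to 2 and 3 to 5, untreated from 0 to 0, 1 to 2 and 0 to 1. Without lane 1 or lane 8 the Ppfia2 PB count was 5. The listed Ppfia2 orientation, never past the threshold, turned direction in IR with right-end reads turned (45.5% to 81.8% with the gene) and in PB at the 0.1% call (42.9% to 52.5%). Lane by lane it ranged from 28.6% to 55.6% in IR and 14.3% to 55.6% in PB. Of 473 values 403 kept their size or side of the threshold. With lane as a replicate block, an alternative chosen after seeing the data, an exact conditional test called 0 genes between arms in each kind of library (0, 4 and 3 at an unadjusted p under 0.05), and the Ppfia2 differences were 8.32, 6.84 and 10.5 points. The number of tumours hit limits each comparison.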
